A study of Homo sapiens with 6 samples.

Results

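Caspase 8, the inflammatory caspases and the gasdermins were described here in CD109-KO and parental A431 cells by array. The group holds 10 genes of 17687 measured by named probe sets: CASP8, CASP1, CASP4, CASP5, GSDMB, GSDMC, GSDMD, GSDME, PYCARD and IL18. They were taken by symbol, and all 10 had a probe set. A431 is an established human line of epidermoid carcinoma, a squamous cell carcinoma of skin. The CD109-KO samples were 3 clones (26, 32 and 180), each grown from 1 sorted CD109-negative cell after transfection of A431 with Cas9 and a guide against the first exons of CD109. The other 3 samples (5, 2 and 6) were parental A431 cells with the wild-type gene, and the labels name no other treatment of either group. Total RNA of each sample was hybridized to 1 Affymetrix Clariom S human array, and the deposited value of a probe set is a normalized log2 signal. Whether samples 5, 2 and 6 came from separate cultures is not labelled, and no parental sample is described as a sorted clone, so that knockout and clonal origin cannot be told apart.

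Caspases are proteases that cut after aspartate. CASP8 is the initiator caspase recruited to death receptors, where it starts apoptosis and holds back necroptosis. CASP1, CASP4 and CASP5 are the inflammatory caspases: CASP1 is activated in inflammasomes through the adaptor PYCARD (also called ASC), while CASP4 and CASP5 bind lipopolysaccharide in the cytosol. These caspases cut gasdermins, whose freed amino-terminal part opens pores in the plasma membrane, a lytic death named pyroptosis, and CASP1 and CASP4 also process the cytokine IL18. Epithelial cells such as keratinocytes store IL18 and carry CASP4 as a guard against bacteria.

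The difference between CD109-KO and parental arrays is what led to these 10 genes being grouped, so that it is given as a description with its standard error and without a p-value for any of them. A gene was called higher or lower at an adjusted p of 0.01 (limma, Benjamini-Hochberg over all gene probe sets) with a fold change of 2. Across all 17687 genes 26.8% were lower in CD109-KO arrays by this call and 36.2% were higher. Higher genes made up 57.5% of the called genes as deposited, 89.2% after centring arrays on 28 housekeeping genes, which every cell type uses, 14.1% after centring on 23 antigenomic background controls and 18.3% after centring on 4 hybridization controls. The median log2 difference of all genes was 0.51 as deposited and became 2.46, -0.47 and -0.33 under these centrings. The background of an array was set at the signal that 95% of its 348 olfactory receptor probe sets did not exceed, since these receptor genes belong to the nose and are mostly silent elsewhere. The mean log2 background was 5.59 for the clones and 4.14 for parental cells. A signal of 5 was therefore above background in a parental array and below it in a CD109-KO array.

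The arrays of the groups stood far apart. Signals of all genes correlated at 0.960 to 0.969 within CD109-KO clones, at 0.958 to 0.978 within parental samples and at 0.519 to 0.600 between them, across genes that are not independent replicates. CD109 itself was below background in the clones (3.64, 3.45 and 3.62 for 26, 32 and 180) and far above it in parental cells (7.57, 7.75 and 8.13 for 5, 2 and 6). All 7 measured markers of squamous and A431 cells fell, with summed linear signals of 849 to 924 in CD109-KO arrays against 11759 to 14181 in parental arrays. EGFR, which A431 cells carry in amplified form, was above background in 1 of 3 CD109-KO arrays (5.45, 5.48 and 6.14). Of 9 fibroblast and mesenchymal markers 8 rose and 1 (LUM) fell, with sums of 9924 to 11059 against 294 to 346. PDGFRA, counted as risen, was below background in all 6 arrays. Of 9 leukocyte markers 6 rose and 1 (CD68) fell, against 36.2% and 26.8% of all genes, with sums of 726 to 795 against 895 to 1314. CD68 read 9.42, 10.08 and 9.87 in parental samples 5, 2 and 6, the largest signals of this list. It read 5.96, 5.68 and 5.25 in clones 26, 32 and 180. The parental sums therefore rest mostly on CD68, and their direction is not that of most markers. The pan-leukocyte marker PTPRC, counted as risen, was below background in all 6 arrays. Of 4 endothelial markers 2 (VWF and PECAM1) rose, against 36.2% of all genes, with sums of 209 to 216 against 91 to 96. VWF had the largest signals of this list in the clones, and PECAM1 was below background in all 6 arrays. The part of these shifts in the values below was not tested, and in bulk RNA fewer cells of a type and less RNA per cell cannot be told apart.

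Of the 10 genes, CASP8, CASP4, IL18, CASP1, GSDMB and GSDME were called lower in CD109-KO cells and CASP5 higher, while GSDMC, GSDMD and PYCARD were not called, as 36.9% of all genes were not. After centring on housekeeping genes 3 were called lower and 4 higher, where 8.64% of all genes were lower and 71.7% higher. After centring on antigenomic controls 8 were called lower, where 38.4% of all genes were, and CASP5 was not called. The 6 genes called lower, and GSDMC, exceeded the background of each parental array and of no CD109-KO array. This held for 18.3% of all genes, and for 2568 of the 4746 genes called lower among all genes. In 8 of the 10 genes the groups did not overlap, as in 80.7% of all genes. The clones were the higher group in 2 of these 8 (48.9% of all genes) and the lower group in 6 (31.8% of all genes). The median log2 difference of the 10 genes was -1.88, against 0.51 for all genes. Because the genes were chosen by the log2 difference between the groups, nothing is read from these shares.

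**Figure D1:**
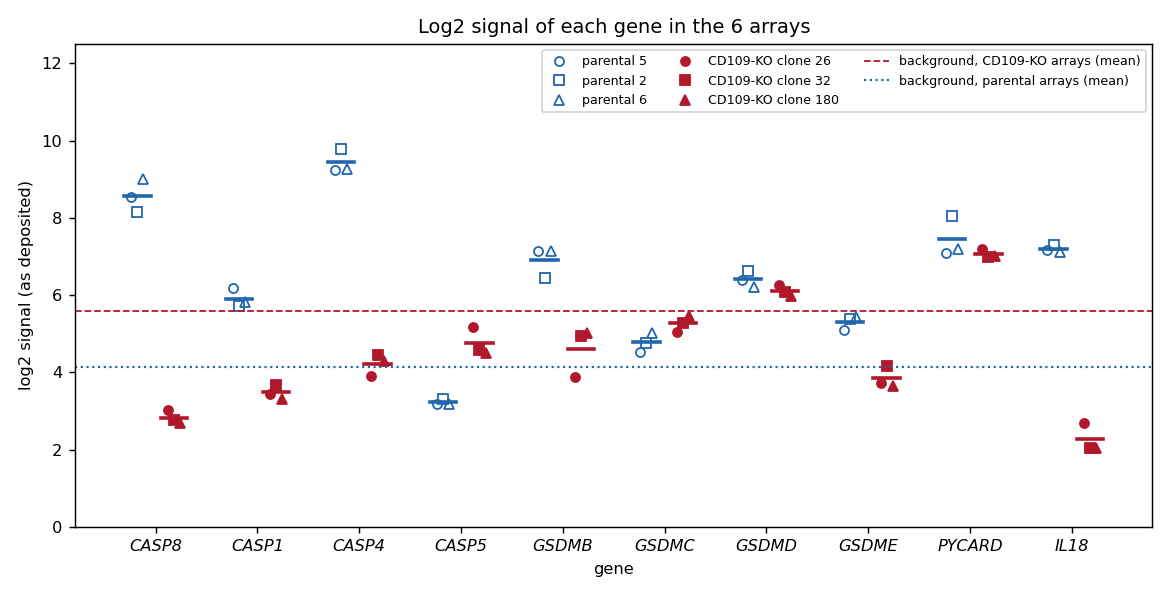
Log2 signal (vertical axis, as deposited) of the 10 genes in each of the 6 arrays, with parental samples as open blue symbols, CD109-KO clones as filled red symbols and the mean of each group of 3 as a bar. The dashed and dotted lines are the mean background of CD109-KO (5.59) and parental (4.14) arrays. CASP8, CASP4 and IL18 have the widest gaps between groups, while GSDMD and PYCARD lie above both lines in every array; heights of different genes are not comparable.

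CASP8 spans bases 201233463 to 201287711 of chromosome 2 (GRCh38). In clones 26, 32 and 180 the log2 signal of CASP8 was 3.02, 2.76 and 2.69, and in parental samples 5, 2 and 6 it was 8.54, 8.16 and 9.0. The clones lay close together far below every parental sample. The log2 difference was -5.74 (standard error 0.26, n = 3 per group). With each CD109-KO signal raised to its array's background, CASP8 was at least 7.89-fold lower, which is the bound given for other genes too.

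CASP4, an intracellular receptor and protease for lipopolysaccharide, lies on chromosome 11 from 104942866 to 104968574. Parental samples 5, 2 and 6 gave CASP4 log2 signals of 9.24, 9.79 and 9.27, whereas clones 26, 32 and 180 gave 3.90, 4.45 and 4.28. All clones were below background and all parental samples were far above it. The log2 difference was -5.22 (standard error 0.25, n = 3 per group), and the bound was at least 14.4-fold lower. That bound is higher than the bound of CASP8 although its measured difference is smaller, because the bound depends only on the parental signal where the clones lie under the background.

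CASP1, the protease of inflammasomes, lies next to CASP4 and CASP5 on chromosome 11, from 105025443 to 105036686. The CASP1 probe set read 3.45, 3.68 and 3.32 on the log2 scale in clones 26, 32 and 180, where parental samples 5, 2 and 6 read 6.18, 5.71 and 5.82. The groups did not overlap, and the parental samples stood only a little over the background level of the CD109-KO arrays. The log2 difference was -2.42 (standard error 0.23), of which the bound keeps at least 1.24-fold. After centring on housekeeping genes it was -0.46 and no longer called.

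CASP5, the other lipopolysaccharide-binding caspase, lies between them from 104994243 to 105023168. In clones 26, 32 and 180 the log2 signal of CASP5 was 5.17, 4.57 and 4.51, and in parental samples 5, 2 and 6 it was 3.19, 3.30 and 3.19. Every value was below the background of its own array, so that no fold is given. The clones read higher than the parental samples by 1.52 on the log2 scale (standard error 0.24). Between the groups the background differed by 1.45, and the olfactory receptor probe sets by a median of 0.83. The part of the background in the CASP5 difference was not tested. After centring on antigenomic or hybridization controls the CASP5 difference was 0.54 or 0.68 and no longer called.

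IL18, a cytokine of the interleukin 1 family held as an inactive precursor, lies on chromosome 11 from 112143260 to 112164094. Parental samples 5, 2 and 6 gave IL18 log2 signals of 7.16, 7.30 and 7.12, whereas clones 26, 32 and 180 gave 2.69, 2.04 and 2.05. The parental samples were almost level, and each clone lay far under the background. The log2 difference was -4.94 (standard error 0.24, n = 3 per group), and the bound was at least 3.04-fold lower.

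The gasdermins went different ways. GSDMB, on chromosome 17 from 39904595 to 39918635, is cut by granzyme A and by caspases. The GSDMB probe set read 3.88, 4.94 and 5.01 on the log2 scale in clones 26, 32 and 180, where parental samples 5, 2 and 6 read 7.14, 6.43 and 7.13. Clone 26 lay apart from the other clones, and parental sample 2 below the other parental samples. The log2 difference was -2.29 (standard error 0.33, n = 3 per group), at least 2.48-fold lower by the bound. It was not called with the methods' t-test, nor after centring on housekeeping genes (-0.34).

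GSDME, on chromosome 7 from 24698355 to 24795539, encodes a pore-forming gasdermin first known from inherited hearing loss. In clones 26, 32 and 180 the log2 signal of GSDME was 3.73, 4.15 and 3.65, and in parental samples 5, 2 and 6 it was 5.10, 5.37 and 5.44. The groups did not overlap, and the log2 difference was -1.46 (standard error 0.23). The parental samples were above their own background but under the level of the CD109-KO background, so that no fold is given. The sign turned after centring on housekeeping genes (0.49).

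GSDMD, the gasdermin that CASP1 and CASP4 cut to bring about pyroptosis, was above background in all 6 arrays. Parental samples 5, 2 and 6 gave GSDMD log2 signals of 6.38, 6.63 and 6.22, whereas clones 26, 32 and 180 gave 6.26, 6.07 and 5.98. The groups overlapped, with a log2 difference of -0.31 and a 95% interval of -0.80 to 0.18. GSDMC, which CASP8 is known to cut, had log2 signals of 5.04, 5.28 and 5.47 for clones 26, 32 and 180 as against 4.53, 4.77 and 5.03 for parental samples 5, 2 and 6. The clones read slightly higher, by 0.48 (95% interval -0.03 to 1.0), yet were all below background while the parental samples were all above it. Both genes lie on chromosome 8.

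PYCARD, on chromosome 16 from 31201486 to 31202760, encodes the adaptor that joins inflammasome sensors to CASP1. The PYCARD probe set read 7.18, 6.98 and 7.02 on the log2 scale in clones 26, 32 and 180, where parental samples 5, 2 and 6 read 7.09, 8.05 and 7.18. The groups overlapped, since parental sample 2 alone was higher. The log2 difference was -0.38 with a 95% interval of -0.99 to 0.23. PYCARD and GSDMD were the members above background in all 6 arrays, as were 37.6% of all genes.

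The scaling of the arrays decided the sign of the small differences and not of the large ones. The difference stayed below 0 and called in all 14 alternative fits for CASP8 (-6.72 to -3.79), CASP4 (-6.20 to -3.27) and IL18 (-5.92 to -2.98). For GSDMD and PYCARD it was 1.64 and 1.58 after centring on housekeeping genes, both called higher, and -1.29 and -1.36 after centring on antigenomic controls, both called lower. Relative to the median of all genes in the deposited values, GSDMD differed by -0.82, PYCARD by -0.88, GSDMC by -0.02 and CASP8 by -6.25. These relative values are not moved by any centring, which shifts all genes of an array alike.

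**Figure D2:**
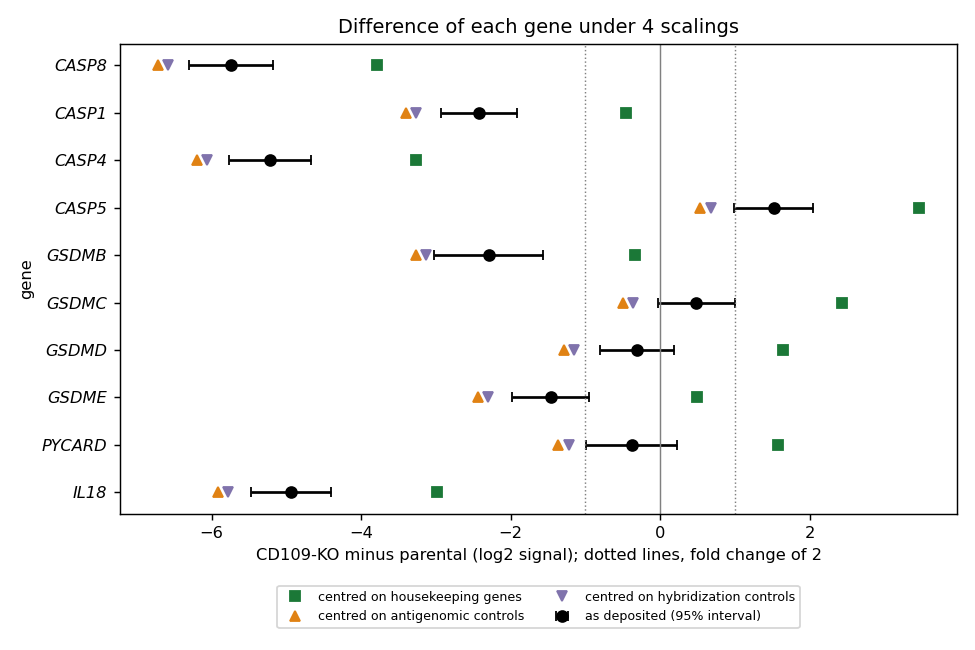
CD109-KO minus parental log2 signal (horizontal axis) of the 10 genes, as deposited with 95% intervals from limma (black) and after centring each array on 28 housekeeping genes (green), 23 antigenomic controls (orange) or 4 hybridization controls (violet). CASP8, CASP4 and IL18 stay below -1 under all 4 scalings, whereas GSDMD and PYCARD fall on both sides of 0.

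Spread within a group enters the standard errors above and is given as a description. Among the CD109-KO clones, all below background for this gene, the SD was 0.63 for GSDMB, higher than that of 95.9% of all genes, because clone 26 read 3.88 against 4.94 and 5.01. The clones differed least for PYCARD, with an SD of 0.11 (percentile 15.4). Among the parental samples the order was another: PYCARD had an SD of 0.53 (percentile 84.1), CASP8 of 0.42 (percentile 71.5), IL18 of 0.09 (percentile 6.84) and CASP5 of 0.07 (percentile 3.55). For CASP8 the SD among the clones was 0.17 (percentile 33.3).

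The promoters of members that differed in their readout are shown for the letters they hold, each as the RefSeq sequence of GRCh38.p14 from 250 bases before to 50 after the transcript start. Of the 10 genes 5 matched the promoter table. CASP8 and CASP4 are shown as members with large differences, PYCARD as a member that was not called. Capitals mark matches to the interferon-response core (GAAA, any 2 bases, GAAA), the AP-1 site TGANTCA, the kappa B form (GGG, any 5 bases, CC) or the TATA box TATAAA on either strand.
CASP8, chr2:201233213-201233512, plus strand: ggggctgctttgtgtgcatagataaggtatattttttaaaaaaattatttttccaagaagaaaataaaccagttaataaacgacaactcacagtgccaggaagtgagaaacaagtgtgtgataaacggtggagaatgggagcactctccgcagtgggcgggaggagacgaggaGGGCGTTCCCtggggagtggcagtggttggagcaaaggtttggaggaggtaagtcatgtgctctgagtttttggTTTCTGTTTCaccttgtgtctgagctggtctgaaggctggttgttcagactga
CASP4, chr11:104968525-104968824, minus strand: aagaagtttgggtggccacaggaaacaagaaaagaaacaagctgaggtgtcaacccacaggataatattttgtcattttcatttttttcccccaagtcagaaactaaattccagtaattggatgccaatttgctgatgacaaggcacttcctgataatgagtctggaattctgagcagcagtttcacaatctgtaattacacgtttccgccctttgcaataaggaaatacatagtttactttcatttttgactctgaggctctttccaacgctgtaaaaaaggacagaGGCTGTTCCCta
PYCARD, chr16:31202711-31203010, minus strand: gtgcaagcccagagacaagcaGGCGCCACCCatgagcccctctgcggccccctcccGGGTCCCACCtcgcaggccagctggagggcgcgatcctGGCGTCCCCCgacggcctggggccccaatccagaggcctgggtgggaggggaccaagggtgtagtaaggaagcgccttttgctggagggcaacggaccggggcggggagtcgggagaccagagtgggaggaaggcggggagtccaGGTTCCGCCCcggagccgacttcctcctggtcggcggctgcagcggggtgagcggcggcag

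The CASP8 window holds 1 match to the interferon-response core, TTTCTGTTTC, across its transcript start, and 1 kappa B match, GGGCGTTCCC. The CASP4 window holds 1 kappa B match, GGCTGTTCCC, just downstream of the start. The PYCARD window holds 4 kappa B matches and none of the other 3 marked motifs. The short E-box CANNTG, which is not marked and which 68.7% of promoters held, matched at 2 places in the CASP8 window, at 1 in the PYCARD window and nowhere in that of CASP4. Of 35116 promoters of this length 3.57% held the interferon-response core, 7.71% the AP-1 site, 58.7% the kappa B form and 11.5% the TATA box, so that a kappa B match is common. The share of G and C was 39.7% for CASP4 (10.7% of promoters were lower), 46.3% for CASP8 and 72.0% for PYCARD, against a median of 58.7%. CASP5, which was below background in every array, had 42.3% and GSDME 77.0%. The CASP5 window held 2 matches to the interferon-response core and 2 to the kappa B form. The GSDME window held 7 kappa B matches, and some of these matches overlap. A match is a run of letters and not a shown binding site.

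Genes that act with these caspases and gasdermins were listed by role, 97 in all, of which 86 were measured. By limma 32 of them fell (37.2%) and 16 rose (18.6%), against 26.8% and 36.2% of all genes, and their median log2 difference was -0.04 against 0.51. After centring on housekeeping genes 14 fell and 54 rose, against 8.64% and 71.7% of all genes. After centring on antigenomic controls 41 fell and 1 rose, against 38.4% and 6.32% of all genes. Of the 32 that fell, 22 were above background in all parental and no CD109-KO array, as were 2568 of the 4746 genes that fell among all genes. Of the 16 that rose, 10 were below background in every CD109-KO array, as were 2239 of the 6410 genes that rose among all genes.

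**Figure D3:**
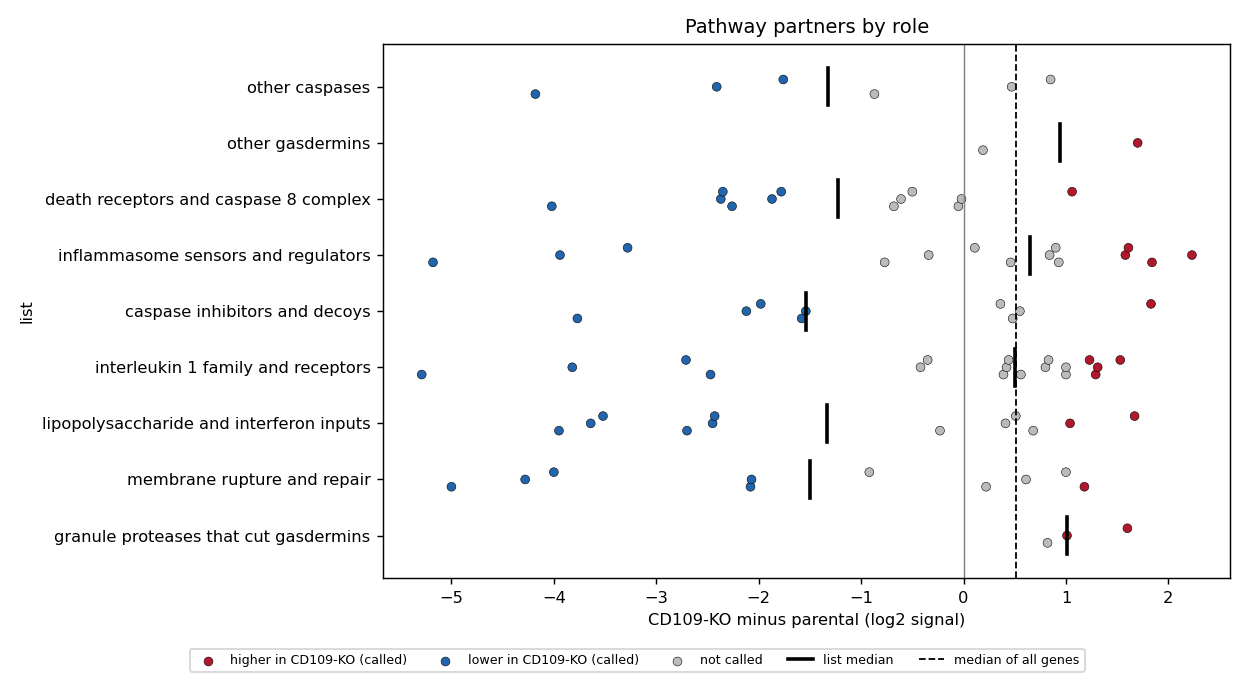
CD109-KO minus parental log2 signal (horizontal axis) of the 86 measured partner genes, by role. Blue points fell, red points rose and grey points were not called at an adjusted p of 0.01 from limma with a fold change of 2; bars are list medians and the dashed line is the median of all genes (0.51). Other caspases, caspase 8 partners, caspase inhibitors, interferon inputs and membrane repair genes have medians between -1.54 and -1.23, and the sensor and interleukin 1 lists lie near the median of all genes.

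Of 12 measured death receptors and partners of caspase 8, 6 fell and 1 rose as deposited, against 26.8% and 36.2% of all genes. ZBP1, the gene that rose, was below background in all 6 arrays. After centring on housekeeping genes 1 fell and 6 rose, against 8.64% and 71.7%. BID, which CASP8 cuts to reach mitochondria, fell by 4.02 (limma, adjusted p = 5.28e-07), at least 5.72-fold. CFLAR, the catalytically inactive relative of CASP8 that restrains it, fell by 2.35 (limma, adjusted p = 6.71e-06), at least 4.16-fold. TNFRSF1A, the main receptor for TNF, fell by 2.37 (limma, adjusted p = 3.21e-05) and stayed above background in all 6 arrays. The calls of CFLAR (-0.40) and TNFRSF1A (-0.42) were lost after centring on housekeeping genes. The TRAIL receptor TNFRSF10A had a log2 difference of -0.02 (limma, adjusted p = 0.95), with signals of 6.30, 6.78 and 6.79 for clones 26, 32 and 180 as against 6.19, 6.59 and 7.16 for parental samples 5, 2 and 6. It was called higher after centring on housekeeping genes (1.93).

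Of 6 other caspases measured, 3 fell and 0 rose by limma, against 26.8% and 36.2% of all genes. At an unadjusted p of 0.05 the count of higher ones was 0, and with the methods' t-test it was 0. After centring on housekeeping genes 1 fell and 3 rose. CASP2, an initiator caspase linked to p53, fell by 4.18 (limma, adjusted p = 3.87e-07), at least 9.46-fold. CASP10, the close relative of CASP8, fell by 2.41 (limma, adjusted p = 3.84e-06), from parental signals of 4.85 to 4.99 that lie under the CD109-KO background, so that no fold is given, and its call was lost after centring on housekeeping genes (-0.45). CASP6, an executioner caspase, fell by 1.76 (limma, adjusted p = 0.000109), at least 2.16-fold, with the sign turned after centring on housekeeping genes (0.19). CASP12 did not pass (0.47, limma adjusted p = 0.0946) and was below background in all 6 arrays. Of the other gasdermins, GSDMA, the gasdermin of differentiated skin, rose by 1.70 (limma, adjusted p = 3.79e-05) and was above background in all 6 arrays, a call lost after centring on antigenomic controls (0.72). PJVK, a gasdermin needed for hearing, did not pass (0.19, limma adjusted p = 0.483) and was below background throughout.

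Of 14 measured inflammasome sensors and regulators, 3 fell and 4 rose, against 26.8% and 36.2% of all genes. IFI16, a sensor of DNA, had log2 signals of 5.17, 4.88 and 4.91 for clones 26, 32 and 180 as against 10.15, 10.13 and 10.21 for parental samples 5, 2 and 6. Its groups were tight and far apart, a fall of 5.18 (limma, adjusted p = 5.43e-08), at least 23.9-fold. AIM2, which binds DNA and calls in PYCARD, fell by 3.28 (limma, adjusted p = 5.07e-07), at least 3.22-fold. TXNIP, a thioredoxin-binding protein linked to NLRP3, fell by 3.94 (limma, adjusted p = 2.84e-05), a call lost with the methods' t-test. DPP9, a peptidase that holds NLRP1 and CARD8 in check, did not pass (0.11, limma adjusted p = 0.761), yet was called higher after centring on housekeeping genes (2.06). Of the 4 sensors that rose, 3 were below background in every CD109-KO array, and after centring on antigenomic controls 5 of the 14 fell and 1 rose, while 3 fell and 11 rose after centring on housekeeping genes.

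Of 9 caspase inhibitors and decoys, 5 fell and 1 rose as deposited, against 26.8% and 36.2% of all genes. After centring on housekeeping genes 1 fell and 4 rose, against 8.64% and 71.7%. SERPINB1, a serpin that binds inflammatory caspases, fell by 3.77 (limma, adjusted p = 8.74e-06), at least 3.91-fold. TNFAIP3, the ubiquitin-editing enzyme A20, fell by 2.12 (limma, adjusted p = 1.16e-05), and BIRC2, a ubiquitin ligase of the TNF receptor complex, fell by 1.98 (limma, adjusted p = 8.91e-06), at least 1.33-fold. Both calls were lost after centring on housekeeping genes (-0.17 and -0.03). CARD18, a decoy of CASP1, did not pass (0.36, limma adjusted p = 0.229) and was below background in all 6 arrays.

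Of 18 genes of the interleukin 1 family and its receptors, 4 fell and 4 rose, against 26.8% and 36.2% of all genes. IL1RN, the antagonist of the interleukin 1 receptor, had log2 signals of 5.01, 4.39 and 4.81 for clones 26, 32 and 180 as against 9.89, 9.74 and 10.45 for parental samples 5, 2 and 6. It fell by 5.29 (limma, adjusted p = 7.44e-08), at least 21.7-fold. IL1B, which CASP1 processes like IL18, fell by 3.82 (limma, adjusted p = 1.23e-06), and the receptor subunit IL1RAP fell by 2.71 (limma, adjusted p = 3.87e-06), a call lost after centring on housekeeping genes (-0.75). IL18R1, the receptor chain that binds IL18, did not pass (-0.35, limma adjusted p = 0.18) and was below background in all 6 arrays. Of the 4 that rose, 3 were below background in every CD109-KO array, after centring on antigenomic controls 6 of the 18 fell, and after centring on housekeeping genes 2 fell and 14 rose.

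Of 12 genes that carry lipopolysaccharide or interferon signals, 6 fell and 2 rose as deposited, against 26.8% and 36.2% of all genes. TLR4 and IRF8, the 2 that rose, were below background in all 6 arrays. After centring on housekeeping genes 3 fell and 6 rose, against 8.64% and 71.7%. The guanylate-binding proteins coat bacteria and bring CASP4 to lipopolysaccharide. GBP1 fell by 3.95 (limma, adjusted p = 2.92e-06), at least 3.78-fold. GBP3 fell by 3.64 (limma, adjusted p = 8.34e-07), and GBP2 by 3.52 (limma, adjusted p = 1.28e-05). LY96, which lets TLR4 bind lipopolysaccharide at the cell surface, did not pass (-0.23, limma adjusted p = 0.628).

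Of 10 genes of membrane rupture and repair, 5 fell and 1 rose as deposited, against 26.8% and 36.2% of all genes. After centring on housekeeping genes 3 fell and 5 rose, against 8.64% and 71.7%. CHMP3, a subunit of the ESCRT-III filaments that repair gasdermin pores, fell by 5.00 (limma, adjusted p = 9.32e-08). VPS4B, the ATPase that takes these filaments apart, fell by 4.28 (limma, adjusted p = 1.38e-07), at least 9.59-fold, and TSG101, an ESCRT-I subunit, by 4.0 (limma, adjusted p = 6.19e-07), at least 8.50-fold. NINJ1, which ruptures the membrane after gasdermin pores have formed, did not pass (0.22, limma adjusted p = 0.437), with signals between 7.08 and 7.89 in the 6 arrays. It was called higher after centring on housekeeping genes (2.18). Of 3 granule proteases, GZMB rose by 1.60 (limma, adjusted p = 0.000108) and CTSG by 1.01 (limma, adjusted p = 0.00303), both calls lost after centring on antigenomic controls (0.62 and 0.03). CTSG was below background in all 6 arrays, and its call was also lost without CD109-KO replicate 26 (0.90), CD109-KO replicate 180 (0.89) or parental replicate 6 (0.96). GZMA, whose product cuts GSDMB, did not pass (0.82, limma adjusted p = 0.0122).

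Genes within 150 kb of a member were compared next, 52 in all that are not members. Of these 18 fell (34.6%) and 16 rose, against 26.8% and 36.2% of all genes. After centring on housekeeping genes 4 fell and 34 rose, against 8.64% and 71.7% of all genes. After centring on antigenomic controls 22 fell and 4 rose, against 38.4% and 6.32% of all genes. CASP8 lies in a row with CFLAR and CASP10, which arose from a common ancestor, and 4 of its 5 measured neighbours fell and 0 rose. At an unadjusted p of 0.05 the count of higher ones there was 0, and with the methods' t-test it was 0. After centring on housekeeping genes none of these 4 calls held, with CFLAR at -0.40, CASP10 at -0.45, NDUFB3 at -0.55 and TRAK2 at 0.86. The remaining neighbour, FLACC1, was then called higher (2.48). NDUFB3, a subunit of respiratory complex I at the same locus, fell by 2.51 (limma, adjusted p = 0.0001), a call lost with the methods' t-test.

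Beside CASP1, CASP4 and CASP5, the decoy gene CARD16 fell by 1.54 (limma, adjusted p = 0.000286), with the sign turned after centring on housekeeping genes (0.42). CARD16 resembles the amino-terminal part of CASP1 closely, and CASP4 and CASP5 resemble each other. Probe sequences were not used here, so that cross-hybridization between these relatives was not tested.

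Around GSDMB 5 of 8 neighbours rose and 1 fell, against 36.2% and 26.8% of all genes. Of the 5 that rose, ZPBP2 and LRRC3C were below background in all 6 arrays. After centring on housekeeping genes 7 rose and 0 fell, against 71.7% and 8.64% of all genes. After centring on antigenomic controls 2 rose and 2 fell, against 6.32% and 38.4% of all genes. THRA, a thyroid hormone receptor gene, rose by 2.51 (limma, adjusted p = 3.22e-06) and the cytokine gene CSF3 by 2.41 (limma, adjusted p = 3.55e-06). Beside IL18, 3 of 10 neighbours fell and 1 rose, against 26.8% and 36.2% of all genes. After centring on housekeeping genes 1 fell and 7 rose, against 8.64% and 71.7% of all genes. After centring on antigenomic controls 5 fell and 0 rose, against 38.4% and 6.32% of all genes. As deposited SDHD, a subunit of succinate dehydrogenase, fell by 3.56 (limma, adjusted p = 2.39e-06). PTS, which makes a pterin cofactor, fell by 1.96 (limma, adjusted p = 0.000566), a call lost with the methods' t-test and after centring on housekeeping genes.

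Near GSDMD 4 of 11 neighbours rose and 4 fell, against 36.2% and 26.8% of all genes. After centring on housekeeping genes 7 rose and 2 fell, against 71.7% and 8.64% of all genes. After centring on antigenomic controls 0 rose and 4 fell, against 6.32% and 38.4% of all genes. EEF1D, a translation elongation factor, fell by 5.06 (limma, adjusted p = 5.73e-08), and the zinc finger gene ZNF623 by 3.01 (limma, adjusted p = 4.19e-06). Near PYCARD 6 of 12 rose and 3 fell, against 36.2% and 26.8% of all genes. After centring on housekeeping genes 9 rose and 1 fell, against 71.7% and 8.64% of all genes. After centring on antigenomic controls 2 rose and 4 fell, against 6.32% and 38.4% of all genes. PRSS8, an epithelial membrane protease, fell by 3.21 (limma, adjusted p = 1.33e-06), and TRIM72, known for membrane repair in muscle, rose by 2.53 (limma, adjusted p = 1.08e-05), at least 4.39-fold. Beside GSDME both neighbours fell, against 26.8% of all genes. OSBPL3 fell by 2.15 (limma, adjusted p = 3.82e-05) and PALS2 fell by 1.64 (limma, adjusted p = 0.000347), and both calls were lost after centring on housekeeping genes (-0.20 and 0.32). The neighbour of GSDMC, CYRIB, did not pass (0.87, limma adjusted p = 0.00468).

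**Figure D4:**
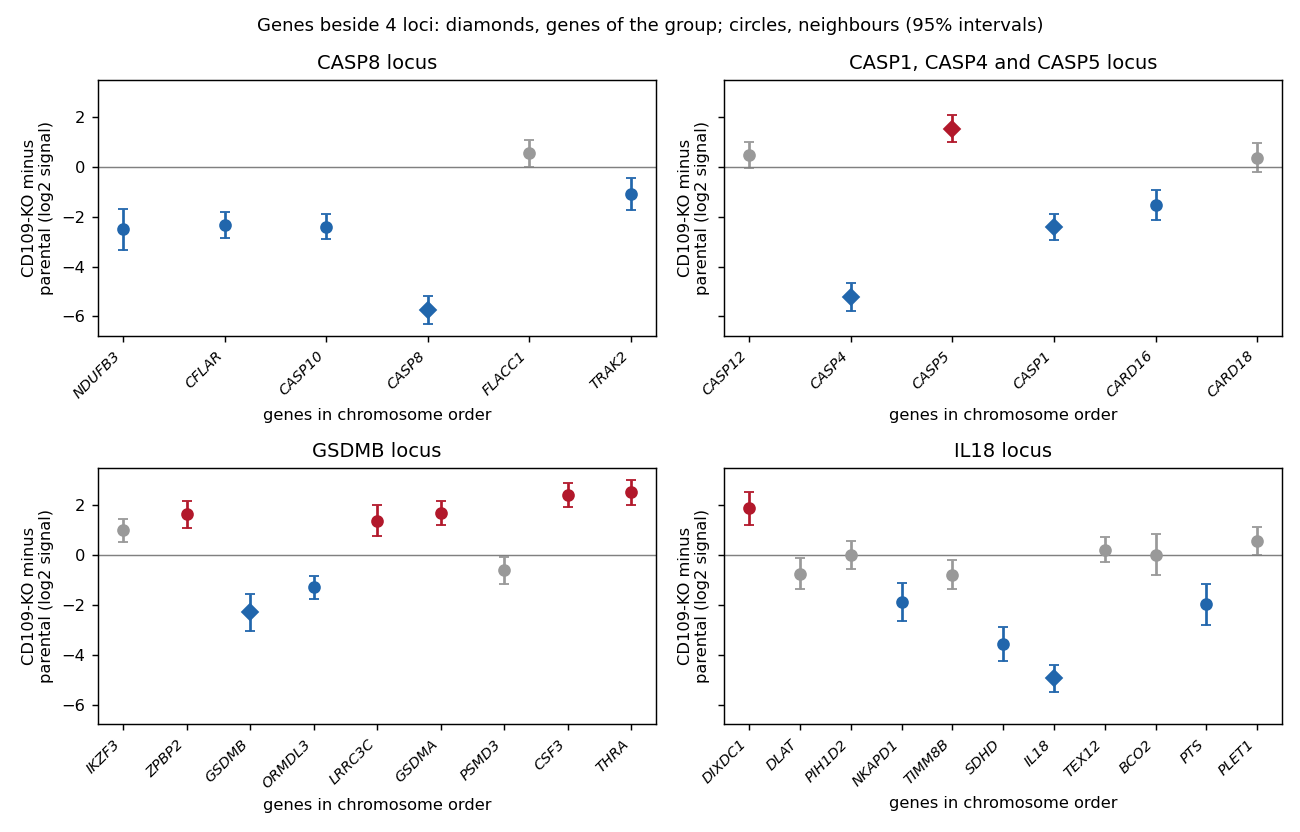
CD109-KO minus parental log2 signal (vertical axis, with 95% intervals from limma) of genes in chromosome order around CASP8, around CASP1, CASP4 and CASP5, around GSDMB and around IL18. Diamonds are the genes described here and circles their neighbours, blue where lower, red where higher and grey where not called. As deposited CASP8, CFLAR, CASP10, NDUFB3 and TRAK2 are lower, of which CASP8 alone is still called lower after centring on housekeeping genes. As deposited GSDMB and ORMDL3 are lower in a row where 5 of 8 neighbours are higher, against 36.2% of all genes. Of these 5, ZPBP2 and LRRC3C are below background in all 6 arrays. After centring on housekeeping genes GSDMB is not called (-0.34), 7 of 8 neighbours are higher and 0 lower, against 71.7% and 8.64% of all genes.

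The genes whose pattern over the 6 arrays was most like that of CASP8 were UBR2, FAM83B, NQO1, EPCAM and EHF. Likeness was the root mean square distance between log2 signals after each gene was centred on its own mean, over 17686 genes. UBR2, a ubiquitin ligase, lay at a distance of 0.112, with signals of 3.78, 3.20 and 3.25 for clones 26, 32 and 180 as against 9.05, 8.73 and 9.41 for parental samples 5, 2 and 6. The distance was 0.152 for FAM83B, 0.167 for the quinone reductase NQO1, 0.194 for the epithelial adhesion gene EPCAM and 0.202 for EHF, an epithelial transcription factor. All 5 were above background in every parental array and below it in every CD109-KO array. The choice of these genes by likeness fixes that they share the group difference of CASP8, so that nothing is read from it.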

How the data were processed

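RNA of 3 CD109-KO clones and 3 parental samples was measured on 1 Clariom S array each. The deposited values are log2 signals that the authors preprocessed in Gene Expression Console and read against hg38. How they were normalized is not stated in those sources. The table holds 24351 probe sets, of which 2903 are controls and 3739 have no gene name. All 17709 named probe sets were matched to RefSeq by Entrez ID. A single probe set was kept where a gene had several (20 genes), leaving 17687 genes.

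The values were not normalized again. Groups were compared with limma 3.58.1 (lmFit and eBayes, R 4.3.3) over 21448 gene probe sets with Benjamini-Hochberg adjustment, after the fit was tested on simulated data. The p-values rest on the spread among 3 clones and among 3 parental samples, of which the latter may be technical, and precision is limited by the number of arrays. Alternatives were 3 centrings, quantile normalization, the methods' t-test, other limma settings, a background filter, other thresholds, leaving out each replicate, and, added after seeing the data, adjustment over 1 probe set per named gene.

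Members and gene lists were chosen with earlier results of these data known. The text names all members, listed partners, neighbours within 150 kb and the 5 genes most like CASP8, with examples from each list by size of change and 1 that did not pass. Protein sequences were not used here.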

Additional observations from a re-analysis of the deposited data

How the results depend on the processing

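Every direction below is CD109-KO minus parental on the log2 scale. Of 887 values of single genes under an alternative, 34 turned sign, 9 of them with a call before or after and 25, in 11 genes, without a call in either. Another 40 lost and 19 gained a call with the sign kept. Centring on housekeeping genes gave 12679 genes higher and 1529 lower, 4 members higher and 3 lower, and 54 partners higher and 14 lower. It ended the calls of the members CASP1 (-0.46) and GSDMB (-0.34) and of the partners and neighbours given above. It gave calls to GSDMC (2.44), CASP12 (2.43), PJVK (2.14), DPP9 (2.06), CARD18 (2.32), NINJ1 (2.18), GZMA (2.77) and CYRIB (2.82). It reversed GSDMD (1.64), GSDME (0.49), PYCARD (1.58), CASP6 (0.19), TNFRSF10A (1.93), IL18R1 (1.61), LY96 (1.72), CARD16 (0.42) and PALS2 (0.32). Centring on antigenomic controls gave 1117 genes, 0 members and 1 partner higher, with CASP5 at 0.54, GSDMD at -1.29 and PYCARD at -1.36. Centring on hybridization controls gave 1360 genes, 0 members and 1 partner higher, with CASP5 at 0.68, GSDMD at -1.15 and PYCARD at -1.22. The background filter left 3704 genes, 0 members and 5 partners higher, since it tested 12224 genes and 9 members. A fold change of 4 left 1127 genes, 0 members and 1 partner higher and 2978 genes lower, and lost CASP5 (1.52) and GSDME (-1.46). An adjusted p of 0.05 without a fold limit gave 27 partners higher. The methods' t-test gave 3140 genes lower and 10 partners higher and lost GSDMB (-2.29).

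Leaving out each replicate gave 5906 to 6606 genes higher and 4377 to 4910 lower, 15 to 19 partners higher and 31 to 34 lower, and 1 member higher and 6 lower throughout. CASP8 ranged from -5.95 to -5.53, GSDMB from -2.52 to -1.93 and PYCARD from -0.55 to -0.07. GZMA passed without CD109-KO replicate 26 (1.0), and CYRIB without parental replicate 6 (1.03). No paired analysis was possible because the groups share no replicate numbers. The higher background of CD109-KO arrays limits every fold of a gene that is below it there.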
